A study of Mus musculus with 24 samples.

Results

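The genes described here are 40 transcripts of the cellular stress response, read in activated mouse T cells. They are 22 genes of the ATF4 arm of the integrated stress response, 15 genes of the XBP1 and ATF6 arm of the unfolded protein response, and the genes of the 3 sensors Atf6, Ern1 and Eif2ak3. They were chosen by name from 55401 genes counted, and all 40 passed the filter on low counts in every fit, so none was lost. One identifier was used for each name: Ddit3 occurs under a pair of identifiers in the count table, of which 1 holds every read.

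When translation initiation factor eIF2 is phosphorylated, by PERK under endoplasmic reticulum stress or by GCN2 under amino acid shortage, general translation slows and the mRNA of ATF4 is translated preferentially. ATF4, a basic leucine zipper factor, then drives genes for amino acid synthesis and uptake, mitochondrial one-carbon metabolism and feedback on the response itself. Unfolded protein in the endoplasmic reticulum also activates the other sensors: IRE1 splices the mRNA of XBP1, and ATF6 is cleaved in the Golgi. The spliced XBP1 and the cleaved ATF6 drive genes for chaperones and for the removal of misfolded protein. T cells call on both programmes when activation raises their protein synthesis.

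CD4+ and CD8+ T cells were sorted from the spleen of C57BL/6 mice aged 12 weeks and stimulated in culture with antibodies to CD3 and CD28 for 2 days. The study compares 3 genotypes of Pou2af1, which encodes an octamer factor coactivator best known from B cells. Controls have the genotype CD4.Cre-.Pou2af1fl/fl, although their titles read Pou2af1+/+. Heterozygotes are CD4.Cre+.Pou2af1fl/+ and knockouts CD4.Cre+.Pou2af1fl/fl, so that CD4-Cre, which recombines in the T lineage during thymic development, is carried by both of these groups and by no control. Each of the 6 groups holds 4 libraries, numbered 1 to 4, 24 in all. The labels do not say whether a number marks an animal, so p-values measure only the spread between these libraries, part of which may be technical.

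Libraries held 11944120 to 21760793 gene counts. Pou2af1 followed the labels in each library: 28.7 to 50.1 CPM (counts per 1000000 gene counts of the library) in CD4 controls, 15.6 to 24.6 CPM in CD4 heterozygotes and 1.30 to 3.86 CPM in CD4 knockouts, against 22.3 to 34.6, 13.7 to 16.6 and 0.758 to 2.41 CPM in the same order in CD8 cells. For all other genes the CPM was TMM-normalised, a scaling between libraries named with the processing below. The CD4 lineage markers (Cd4, Zbtb7b and Cd40lg) summed to 655 to 787 CPM in CD4 libraries and 4.77 to 18.2 CPM in CD8 libraries. The CD8 lineage markers (Cd8a and Cd8b1) summed to 7.64 to 14.95 CPM in CD4 libraries and 940 to 1084 CPM in CD8 libraries. Of markers of other cells, 7 B cell genes summed to 6.92 to 32.9 CPM, 5 plasma cell genes to 0.910 to 4.02 CPM with Tnfrsf17 at 0 in every library, and 7 myeloid genes to 0.356 to 1.79 CPM with C1qa at 0. Their part in the results was not tested.

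One library stood apart for these genes. CD8 knockout 2 had the highest level of the 12 CD8 libraries for 21 of 22 ATF4 arm genes and for 3 of 3 sensors, and the lowest for 11 of 15 XBP1 and ATF6 arm genes. It was also the female library of its group by Xist, and its CD4 lineage sum was 18.2 CPM against 4.77 to 8.99 CPM in the other CD8 knockouts, with Zbtb7b at 16.2 CPM and Cd4 at 1.39 CPM. Its CD8 lineage sum of 1012 CPM and its depth of 14514154 counts lay near those of its group. The main results that rest on it are given with and without it. Among CD4 libraries, knockout 3 had the lowest level of the 12 for 21 of 22 ATF4 arm genes.

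The promoters of the arms differ in their letters. RefSeq promoters (GRCm38.p6, 250 bases before the start) were matched for 36 of 40 genes and searched on both strands. The letters TGATGNAA, those of the composite site bound by ATF4 with a C/EBP partner, were found in 5 of 20 ATF4 arm promoters (25%), in 1 of 14 of the other arm (7.143%) and in 3.907% of all 27025 promoters. The letters CCAAT and CCACG with 9 bases between them, those of the endoplasmic reticulum stress element bound by ATF6 with NF-Y, were found in 7 of 14 XBP1 and ATF6 arm promoters (50%), in 0 of 20 ATF4 arm promoters and in 0.1295% of all. The element ends in CCACG, which alone was found in 70% of ATF4 arm, 85.71% of XBP1 and ATF6 arm and 30.96% of all promoters. A match is a description of letters, not of binding. The genes were listed as members of these responses, so the shares are no separate support for the arms. The sites in genes that changed in a comparison are shown as 30 bases on the strand of the motif, 5′ to 3′. Fixed letters of the motif are in capitals. The ATF4 composite sites are:
Atf3: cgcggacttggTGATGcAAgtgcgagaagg
Chac1: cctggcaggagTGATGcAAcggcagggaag
Asns: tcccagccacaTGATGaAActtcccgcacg
Nupr1: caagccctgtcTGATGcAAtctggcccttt
Pck2: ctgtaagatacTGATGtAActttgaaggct
Herpud1: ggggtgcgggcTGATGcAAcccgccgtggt

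They lie at chr1:191183425-191183454 (plus strand) for Atf3, chr2:119351038-119351067 (minus) for Chac1, chr6:7693214-7693243 (minus) for Asns, chr7:126625562-126625591 (plus) for Nupr1, chr14:55540152-55540181 (minus) for Pck2 and chr8:94386306-94386335 (minus) for Herpud1. Herpud1 is the 1 gene of the XBP1 and ATF6 arm with the ATF4 letters. The endoplasmic reticulum stress elements are:
Calr: atgggCCAATgagggtcgaCCACGcgttgt
Hsp90b1 upstream: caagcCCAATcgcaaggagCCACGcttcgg
Hsp90b1 downstream: actcaCCAATcgtgcctcaCCACGcactct
Canx: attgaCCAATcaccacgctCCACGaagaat
Pdia6: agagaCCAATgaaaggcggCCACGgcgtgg
Creld2: gtggaCCAATtgaggctcgCCACGagaagc

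They lie at chr8:84847070-84847099 (plus) for Calr, chr10:86705632-86705661 (minus) and chr10:86705528-86705557 (plus) for Hsp90b1, chr11:50325794-50325823 (minus) for Canx, chr12:17266486-17266515 (plus) for Pdia6 and chr15:88819514-88819543 (minus) for Creld2. Hspa5 and Dnajc3 hold the element too, and neither changed in any comparison below.

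The arms differed in level and in spread over the 24 libraries. Per kilobase of exon, the chaperone genes led: the mean over libraries was 287 CPM per kb for Hsp90b1 (the chaperone GRP94), 286 for Hspa5 (the chaperone BiP), 227 for Canx (calnexin) and 218 for Calr (calreticulin). Atf4 itself followed at 211 CPM per kb. The lowest were Ern1 (the sensor IRE1) at 1.04, Nupr1 (a small chromatin-associated stress protein) at 0.881 and Aldh1l2 (a mitochondrial folate enzyme) at 0.786 CPM per kb. The ratio of the highest to the lowest library was 28.3 for Nupr1, 23.5 for Aldh1l2, 12.3 for Chac1 (which degrades glutathione), 10.8 for Atf3, 10.4 for Pck2 and 10.2 for Trib3. It was 1.14 for Dnajc3 (the eIF2 kinase inhibitor p58IPK) and 1.31 for Mthfd1l (a mitochondrial formate enzyme), the least of the 40.

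**Figure D1:**
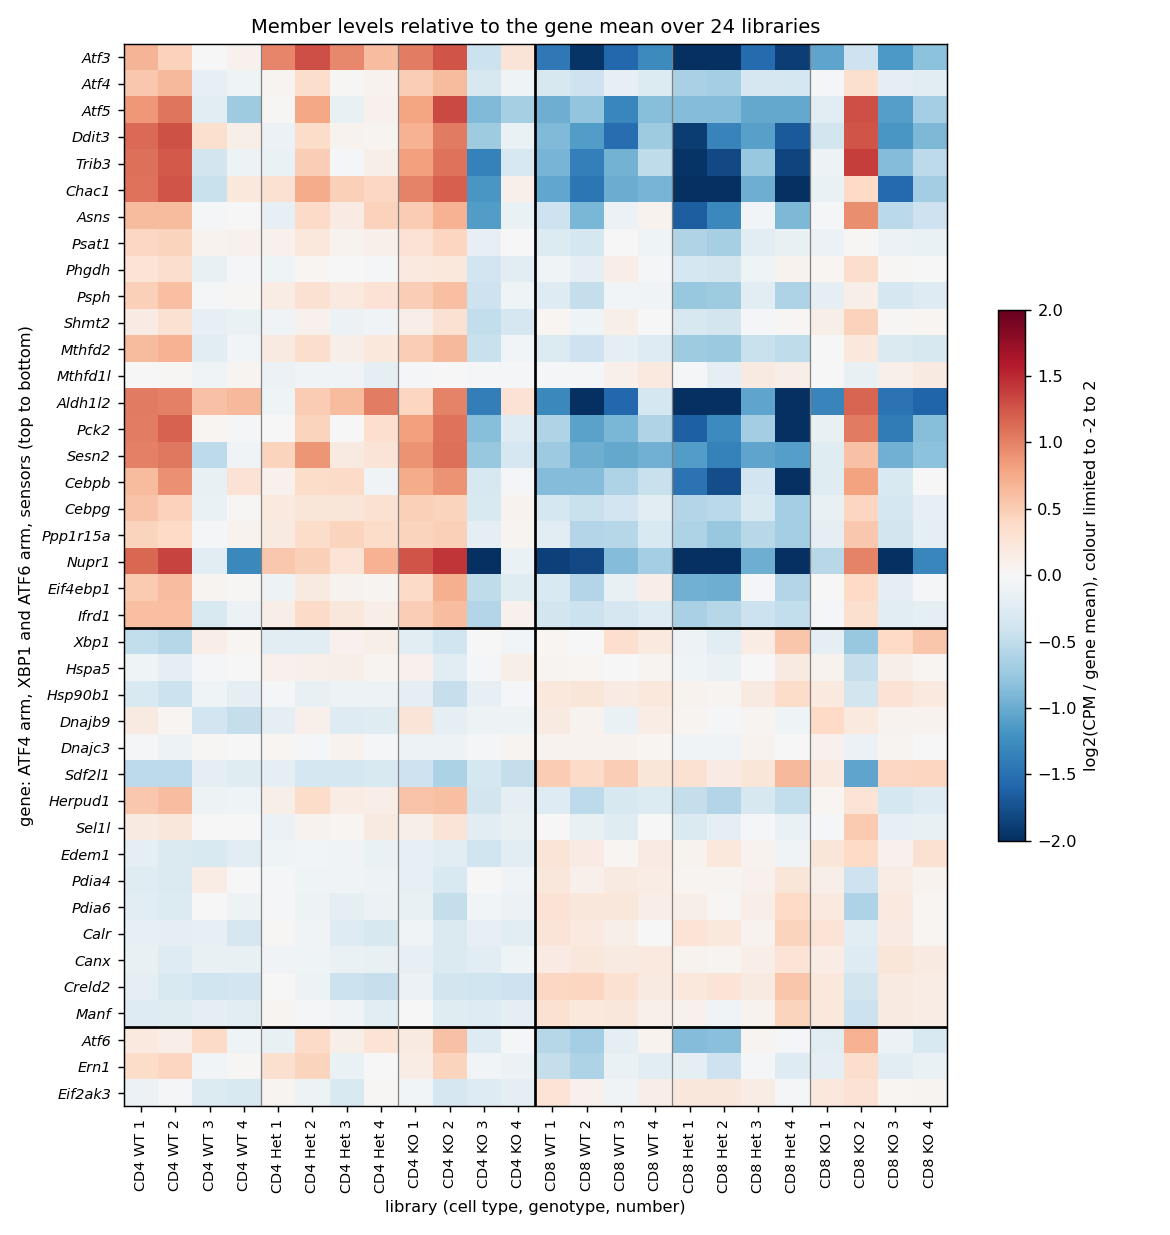
Level of the 40 genes (rows; ATF4 arm, XBP1 and ATF6 arm and sensors from top to bottom) in 24 libraries (columns), as log2 of TMM-normalised CPM over the gene's mean of 24 libraries, with colour limited to -2 to 2. In the ATF4 arm, CD4 libraries 1 and 2 of controls and knockouts and CD8 knockout 2 are red and most other CD8 libraries are blue, while most chaperone genes show the opposite between CD4 and CD8.

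Between cell types the arms moved in opposite directions. In controls, the quasi-likelihood test of edgeR, adjusted over all genes by Benjamini-Hochberg and called under 0.05, called 27 of 40 genes between CD8 and CD4 cells, against 31.2% of all genes tested. In the ATF4 arm 16 of 22 were lower in CD8 cells and 0 were higher, where 16.6% of all genes were lower and 14.7% higher. The arm's median change was -0.64 on the log2 scale, against -0.02 over all genes. In the XBP1 and ATF6 arm 8 of 15 were higher in CD8 cells and 1 was lower, with a median of 0.35. The values are from bulk cells, in which fewer cells of a type and less RNA per cell cannot be told apart.

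Among the transcription factors of the ATF4 arm, Atf3, a stress-induced bZIP factor, showed the clearest separation. Its level was 79.8, 68.6, 49.4 and 52.9 CPM in CD4 controls 1 to 4 and 18.4, 12.7, 16.8 and 20.5 CPM in CD8 controls 1 to 4. Every CD8 control lay below every CD4 control. The change was -1.87 (SE 0.27, edgeR quasi-likelihood adjusted p = 2.08e-05), which is 3.66-fold higher in CD4 cells by the group means. Ddit3, the factor CHOP that promotes cell death under lasting stress, stood at 36.8, 40.6, 20.95 and 18.2 CPM in CD4 and 9.15, 7.77, 5.87 and 10.3 CPM in CD8 controls. These groups did not overlap either, although the CD4 libraries themselves fell into a higher and a lower pair. The change of Ddit3 was -1.81 (SE 0.44, edgeR quasi-likelihood adjusted p = 0.00311). Atf4 averaged 603 ± 173 CPM among CD4 controls against 406 ± 29.3 CPM among CD8 controls (SD, n = 4 each), a change of -0.57 (SE 0.19, edgeR quasi-likelihood adjusted p = 0.0263). Atf5 (-1.39), Cebpb (-1.16) and Cebpg (-0.61), factors of the same bZIP class, were lower in CD8 cells as well, on the log2 scale. Of the exon bases of Ddit3, 10.9% are shared with other genes, and of those of Cebpb 20.7%, so part of their reads cannot be assigned with certainty. The same holds for Hsp90b1 (15.7%), Aldh1l2 (14.1%), Psph (10.4%) and Manf (9.25%).

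Feedback genes followed the same direction. Chac1 stood at 24.2, 27.4, 8.41 and 13.3 CPM in CD4 controls and 5.59, 4.2, 5.74 and 5.99 CPM in CD8 controls, with no overlap (change of -1.76, SE 0.45, edgeR quasi-likelihood adjusted p = 0.00484). Trib3, a pseudokinase that binds ATF4 and dampens it, stood at 87.2, 95.6, 31.4 and 37.9 CPM in CD4 and 21.2, 15.7, 21.1 and 28.5 CPM in CD8 controls. The lowest CD4 control lay just above the highest CD8 control. The change of Trib3 was -1.54 (SE 0.49, edgeR quasi-likelihood adjusted p = 0.0215), and it was called in 10 of 15 alternatives. Sesn2, which restrains mTORC1 when amino acids run short, changed by -1.43, and Ppp1r15a (GADD34), which brings a phosphatase to eIF2, by -0.64. Ifrd1, a transcriptional coregulator, changed by -0.60. Eif4ebp1, the translation repressor 4E-BP1, did not pass (-0.53, SE 0.23).

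The enzymes were divided. Aldh1l2 fell from 10.5 ± 1.71 CPM in CD4 to 2.61 ± 1.40 CPM in CD8 controls (SD, n = 4 each; change of -2.0, SE 0.56, edgeR quasi-likelihood adjusted p = 0.00975), the largest change of the 40. Pck2, the mitochondrial PEP carboxykinase, changed by -1.44, Mthfd2, a mitochondrial folate dehydrogenase, by -0.61, and the serine synthesis genes Psph and Psat1 by -0.50 and -0.43. Phgdh, the first enzyme of serine synthesis, did not pass (-0.16, SE 0.13), nor did Shmt2 (-0.04, SE 0.14) and Mthfd1l (0.06, SE 0.07), both of mitochondrial one-carbon metabolism. Asns, asparagine synthetase, overlapped between the groups and did not pass (-0.64, SE 0.37). Nupr1, at 0.905 to 5.64 CPM in CD4 and 0.605 to 1.38 CPM in CD8 controls, did not pass either (-1.76, SE 0.67, edgeR quasi-likelihood adjusted p = 0.0515).

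In the XBP1 and ATF6 arm the 8 genes higher in CD8 cells were chaperone and folding genes, Edem1 and Manf. Sdf2l1, a partner of the BiP cochaperones, stood at 43.5, 43.4, 54.9 and 53.0 CPM in CD4 controls and 89.0, 81.6, 87.6 and 73.6 CPM in CD8 controls. All CD8 controls lay above all CD4 controls, and the change was 0.77 (SE 0.20, edgeR quasi-likelihood adjusted p = 0.00511). Creld2, a calcium-binding disulfide isomerase, rose from 32.8 ± 2.37 to 51.5 ± 4.16 CPM (SD, n = 4 each; 0.65, SE 0.12, edgeR quasi-likelihood adjusted p = 0.000361). Hsp90b1 (0.45), the secreted stress protein gene Manf (0.43) and Edem1 (0.41), which sends misfolded glycoproteins to degradation, were higher too. So were Canx (0.37), the disulfide isomerase gene Pdia6 (0.36) and Calr (0.35), on the log2 scale. Hspa5, which encodes BiP, stood at 1147 ± 63.1 and 1244 ± 20.1 CPM (SD, n = 4 each) and did not pass (0.12, SE 0.10). Xbp1 (0.34, SE 0.22), Pdia4 (0.25), Dnajb9 (0.20), Dnajc3 (0.09) and Sel1l (-0.19) did not pass either. The counts do not part the spliced from the unspliced Xbp1 transcript.

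Herpud1, which builds the complex that removes misfolded protein from the endoplasmic reticulum, was the exception of its arm. It stood at 137, 145, 88.9 and 89.9 CPM in CD4 controls and 79.5, 66.2, 76.5 and 78.2 CPM in CD8 controls. All CD4 controls lay above all CD8 controls, the first pair by far the most (-0.62, SE 0.19, edgeR quasi-likelihood adjusted p = 0.0184). Of the sensors, Ern1 was lower in CD8 cells (-0.55, SE 0.17) and Eif2ak3, which encodes PERK, was higher (0.29, SE 0.09), with edgeR quasi-likelihood adjusted p = 0.0172 and 0.0226. Atf6 did not pass (-0.46, SE 0.24).

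The size of the ATF4 arm difference depended on the library numbers. In control libraries 1 and 2 alone, 20 of 22 ATF4 arm genes were lower in CD8 cells, with a median of -1.14, against 17.7% of all genes lower. In control libraries 3 and 4 alone 4 of 22 were, with a median of -0.18, against 12% of all genes. The XBP1 and ATF6 arm had medians of 0.43 and 0.30 in these same subsets, with 9 and 7 of 15 genes higher, against 15.9% and 9.08% of all genes. Over all 40 genes, leaving out CD4 control 1, CD4 control 2 or CD8 control 2 in turn reduced the calls from 27 to 17 each time. Atf3, Ddit3, Sdf2l1, Edem1 and Creld2 were among the genes called in each of 15 alternatives. Other calls held less often: Atf5, Pdia6 and Eif2ak3 were called in 8 of the 15, and Psph and Ifrd1 in 9. Atf4, Pck2 and Trib3 were called in 10, and Mthfd2, Herpud1 and Ern1 in 11.

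**Figure D2:**
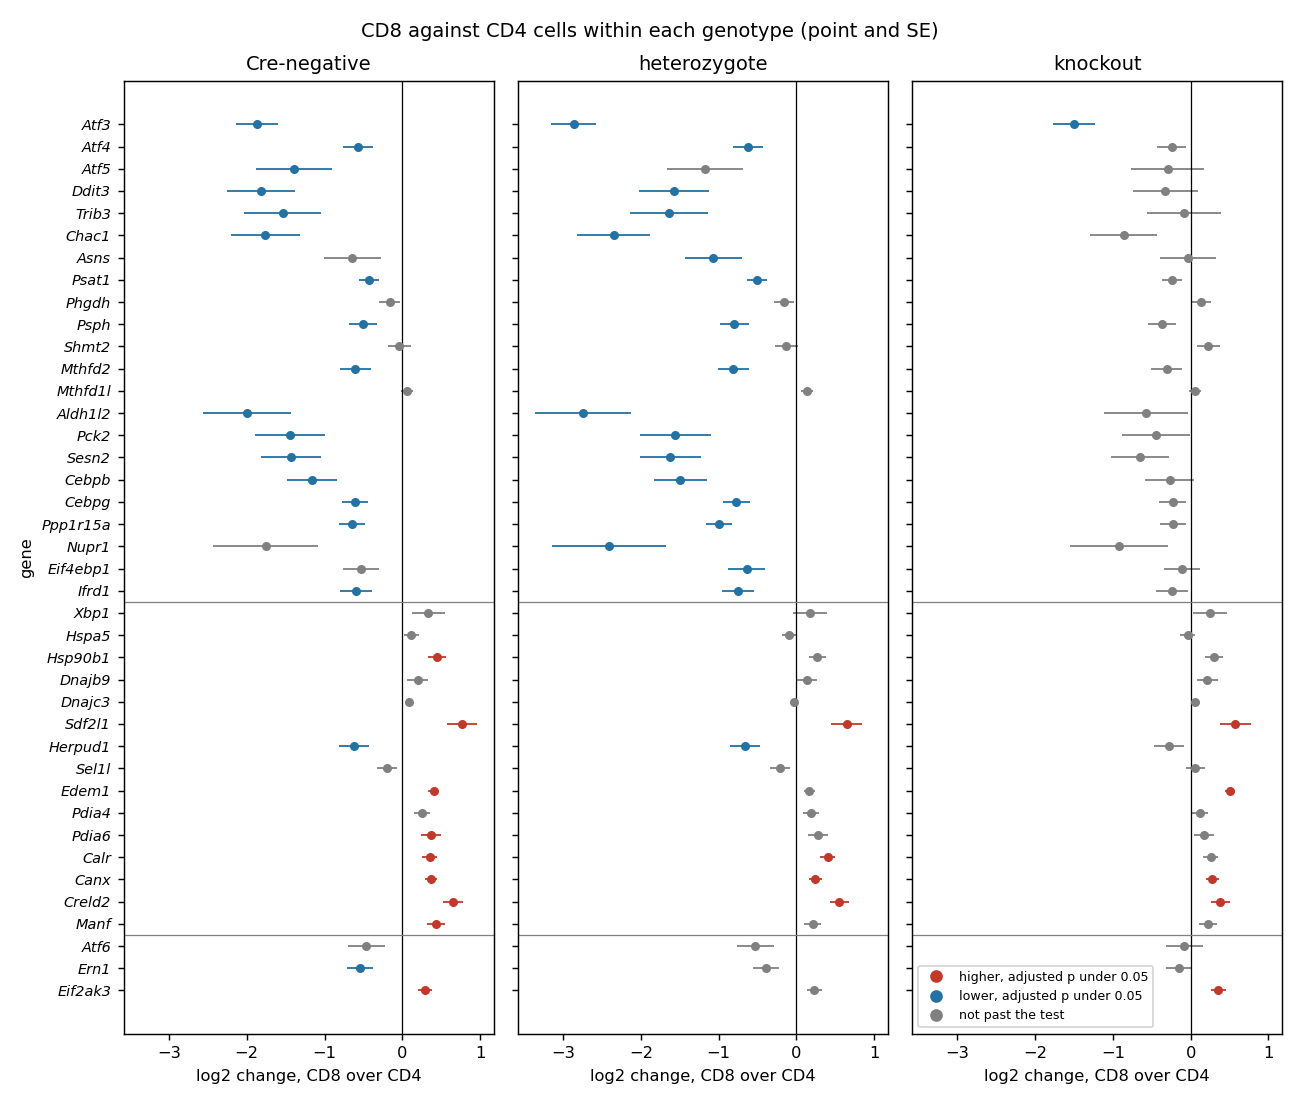
Log2 change from CD4 to CD8 cells for each of the 40 genes in controls, heterozygotes and knockouts (points, with the SE as bars; red higher and blue lower at an adjusted p under 0.05, grey not past the test). The ATF4 arm points at the top lie mostly left of 0 and most chaperone points right of 0 in each panel, with the ATF4 arm nearer to 0 in knockouts.

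Heterozygotes showed the same division for the ATF4 arm and a weaker one for the other arm. Between CD8 and CD4 heterozygotes 23 of 40 genes were called, against 34.9% of all genes (17.1% higher and 17.8% lower). In the ATF4 arm 18 of 22 were lower in CD8 cells with a median of -1.03. In the other arm 4 of 15 were higher and 1 lower, with a median of 0.19. Sdf2l1 (0.64), Creld2 (0.55), Calr (0.40) and Canx (0.24) were higher and Herpud1 lower (-0.66). Hsp90b1, Manf, Edem1 and Pdia6, which were higher in controls, did not pass. Atf3 stood at 97.3, 121, 96.6 and 76.4 CPM in CD4 and 11.9, 11.2, 17.1 and 13.5 CPM in CD8 heterozygotes. The groups were far apart, with a change of -2.87 (SE 0.28, edgeR quasi-likelihood adjusted p = 9.51e-08). The other large decreases were those of Aldh1l2 (-2.75), Nupr1 (-2.41) and Chac1 (-2.35). Nupr1 was counted at as little as 0.212 CPM in a CD8 heterozygote, near the floor of 3 counts, so the size of its change is uncertain.

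Knockouts gave fewer calls, and 1 library weighed on them. Between CD8 and CD4 knockouts 6 of 40 genes were called, against 24.1% of all genes (11% higher and 13% lower): Atf3 was lower in CD8 cells (-1.5, SE 0.27), and Sdf2l1 (0.57), Edem1 (0.51), Creld2 (0.38), Eif2ak3 (0.36) and Canx (0.28) were higher. Without CD8 knockout 2 there were 16 calls, of which 6 ATF4 arm genes were lower and 9 XBP1 and ATF6 arm genes and Eif2ak3 higher, against 14% of all genes lower and 13% higher. With genotype and replicate number as a block there were 10 calls, 7 higher and 3 lower, against 12.9% and 16.2% of all genes. The knockout effect itself was not called to differ between the cell types for any gene of the 40, against 0.00753% of all genes. At an unadjusted p under 0.05 there were 2 of 40 (background 1.72%), Ddit3 (1.49, SE 0.60) and Trib3 (1.45, SE 0.68), and DESeq2 called 0. Without CD8 knockout 2 these were 0.67 (SE 0.47) and 0.74 (SE 0.61), and 0 of 40 had an unadjusted p under 0.05, against 1.01% of all genes. For the heterozygote effect edgeR and DESeq2 also called 0 (background 0.00753%), with Atf3 (-1.0, SE 0.38) and Edem1 (-0.24, SE 0.10) under an unadjusted 0.05 (2 of 40, background 4.05%).

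In the wider pathway lists fewer than 1 in 2 genes passed between the cell types of controls. Of 43 further genes of the ATF4 programme 40 were tested, and 15 were lower and 2 higher in CD8 cells, with a median of -0.37, against 16.6% of all genes lower and 14.7% higher. Among them the lipoprotein receptor gene Vldlr (-3.76), the cystine transporter gene Slc7a11 (-1.72), the cystathionine lyase gene Cth (-1.59) and the glycine transporter gene Slc6a9 (-1.47) had the largest decreases. Vldlr was at 0 to 2.14 CPM in CD8 controls, near the floor, and at 0.942 to 17.0 CPM in CD4 controls, so the size of its change is uncertain. Of 42 further genes of the unfolded protein response, all tested, 15 were higher and 3 lower, with a median of 0.13, beside the same shares of all genes. The calcium-binding Rcn1 (1.16), the folding enzyme gene Fkbp11 (0.99) and the translocon gene Sec61b (0.59) were higher, and the transducer gene Creb3l2 was lower (-1.49). Fkbp11 stood at 0.269 to 1.28 CPM in CD4 and 1.03 to 2.81 CPM in CD8 controls. These low values overlapped, so the size of its change is uncertain too.

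**Figure D3:**
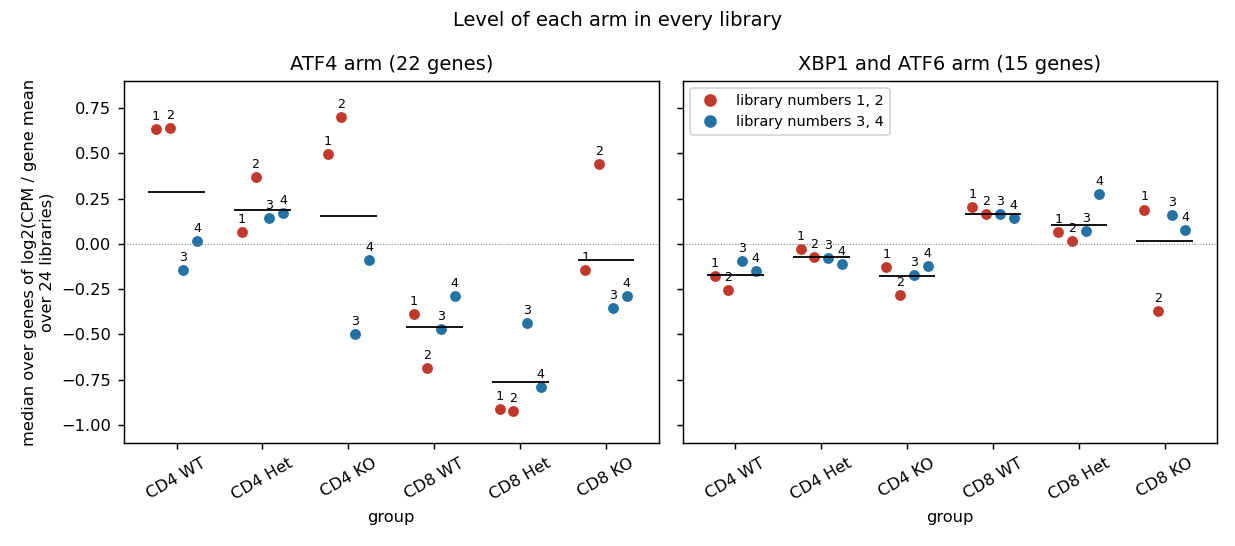
Median over the genes of each arm of log2 of CPM over the gene's mean of 24 libraries (y axis), for every library by group (points marked with the library number; red for 1 and 2, blue for 3 and 4; bars are group means). In the ATF4 arm the CD4 libraries range from -0.50 to 0.70 and the CD8 libraries from -0.92 to 0.44, the last being knockout 2, which is also the lowest point of the other arm at -0.37.

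Comparing genotypes, edgeR's quasi-likelihood test called 0 of 40 genes in each of the 6 comparisons. Called were 0.0708% of all genes for CD4 knockouts against controls, 0.0865% for CD4 heterozygotes against controls and 0.0157% for CD4 knockouts against heterozygotes. In CD8 cells the shares were 0.0634%, 0.0634% and 0.0159% in the same order. Genes with an unadjusted p under 0.05 numbered 0, 3 and 1 of 40 in CD4 cells, against 2.44%, 8.68% and 3.66% of all genes. In CD8 cells they numbered 12, 2 and 23 of 40, against 2.89%, 1.74% and 6.84%. DESeq2 called 4 genes in CD8 knockouts against heterozygotes (0.174% of all genes) and 0 in the other comparisons. Cre is carried by heterozygotes and knockouts alone, so loss of Pou2af1 and Cre cannot be told apart where these are set against controls, and comparisons within a cell type share libraries.

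In CD4 cells the ATF4 arm had a median change of -0.10 in knockouts and -0.14 in heterozygotes against controls. The genes of lowest p in knockouts were Aldh1l2 (-0.53, SE 0.36) and Ddit3 (-0.41, SE 0.35), and in the other arm Sdf2l1 (-0.12, SE 0.09) and Hspa5 (0.06, SE 0.07). In heterozygotes they were Mthfd1l (-0.12, SE 0.04) and Atf3 (0.64, SE 0.30), and Edem1 (0.15, SE 0.06) and Hspa5 (0.16, SE 0.07). None of these passed (edgeR quasi-likelihood adjusted p from 0.509 to 1.0). Between CD4 knockouts and heterozygotes, Mthfd1l (0.09, SE 0.04) and Atf3 (-0.31, SE 0.30), and Edem1 (-0.15, SE 0.06) and Sdf2l1 (-0.17, SE 0.09), had the lowest p without passing. The heterozygote median differed in sign between the library numbers: against controls, the ATF4 arm median was -0.40 in libraries 1 and 2 alone and 0.26 in libraries 3 and 4 alone. In libraries 1 and 2 alone 7 of 40 genes were called, against 1.98% of all genes, with Atf3 higher (0.56) and Ddit3 (-1.05), Trib3 (-0.96), Pck2 (-0.87), Mthfd2 (-0.40), Phgdh (-0.35) and Cebpg (-0.30) lower. Both heterozygote libraries 1 and 2 were female by Xist and both control libraries 1 and 2 male, so sex and genotype cannot be told apart in that subset. In libraries 3 and 4 alone edgeR called 0, with 8 of 22 ATF4 arm genes and 1 of 15 genes of the other arm at an unadjusted p under 0.05, against 17.3% of all genes.

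In CD8 cells 21 of 22 ATF4 arm genes lay above controls in knockouts (median 0.41) and 1 of 22 did in heterozygotes (median -0.33), none past the test. Atf3 had the lowest p in knockouts. It stood at 23.9, 37.1, 22.4 and 28.0 CPM in CD8 knockouts, against 18.4, 12.7, 16.8 and 20.5 CPM in controls and 11.9, 11.2, 17.1 and 13.5 CPM in heterozygotes. All knockouts lay above all libraries of the other groups. The change was 0.70 against controls (SE 0.19, unadjusted p = 0.00268, edgeR quasi-likelihood adjusted p = 0.987) and 1.06 against heterozygotes (SE 0.19, unadjusted p = 0.000108, edgeR quasi-likelihood adjusted p = 0.341). Ifrd1 came next, at 0.33 (SE 0.11) against controls and 0.52 (SE 0.11) against heterozygotes. In the other arm Herpud1 (0.28, SE 0.13) and Creld2 (-0.27, SE 0.12) had the lowest p against controls, and Herpud1 (0.42, SE 0.13) and Edem1 (0.19, SE 0.08) against heterozygotes. In heterozygotes against controls the lowest p belonged to Mthfd2 (-0.32, SE 0.11) and Psph (-0.36, SE 0.14), and to Dnajc3 (-0.08, SE 0.06) and Herpud1 (-0.13, SE 0.13).

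The CD8 knockout values depended on 1 library. Trib3 stood at 38.1, 106, 22.4 and 28.3 CPM in CD8 knockouts, 21.2, 15.7, 21.1 and 28.5 CPM in controls and 10.4, 11.7, 24.04 and 11.4 CPM in heterozygotes. Knockout 2 lay far above every other CD8 library, and knockouts 3 and 4 lay within the range of the controls. Ddit3 stood at 13.1, 40.3, 7.52 and 9.05 CPM in knockouts, with the same library high. Without it the ATF4 arm median was 0.13 in place of 0.41 against controls and 0.47 in place of 0.80 against heterozygotes, with Atf3 at 0.53 (SE 0.17) and 0.89 (SE 0.17). Ifrd1 was then at 0.20 (SE 0.07) and 0.39 (SE 0.07), Herpud1 at 0.15 (SE 0.10) and 0.29 (SE 0.10) and Creld2 at -0.16 (SE 0.09) and -0.12 (SE 0.09) in the same order, and Edem1 at 0.14 (SE 0.08) against heterozygotes. Against controls 2 of 22 ATF4 arm genes and 0 of the other 18 then had an unadjusted p under 0.05, where 1.68% of all genes did. In libraries 3 and 4 alone the medians were -0.02 and 0.18. Against heterozygotes all 22 ATF4 arm genes lay above 0 with and without that library, and 21 and 15 of 22 had an unadjusted p under 0.05, where 6.84% and 4.38% of all genes did, with 0 of 40 called by edgeR. DESeq2 called Atf3, Ifrd1, Mthfd2 and Cebpb in that comparison with all libraries.

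The XBP1 and ATF6 arm went the other way in CD8 knockout 2. Hspa5 stood at 1265, 882, 1307 and 1239 CPM in CD8 knockouts, against 1217 to 1262 CPM in controls. Sdf2l1 stood at 71.8, 29.9, 83.0 and 84.5 CPM in knockouts against 73.6 to 89.0 CPM in controls. Knockout 2 was the lowest CD8 library for both genes, while the other knockouts lay within or close to the control range. Herpud1, Sel1l, which scaffolds the same degradation complex, and Edem1 were instead highest of 12 in this library, at 115, 185 and 400.5 CPM. The arm's median change against controls was -0.08, and -0.0033 without the library.

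**Figure D4:**
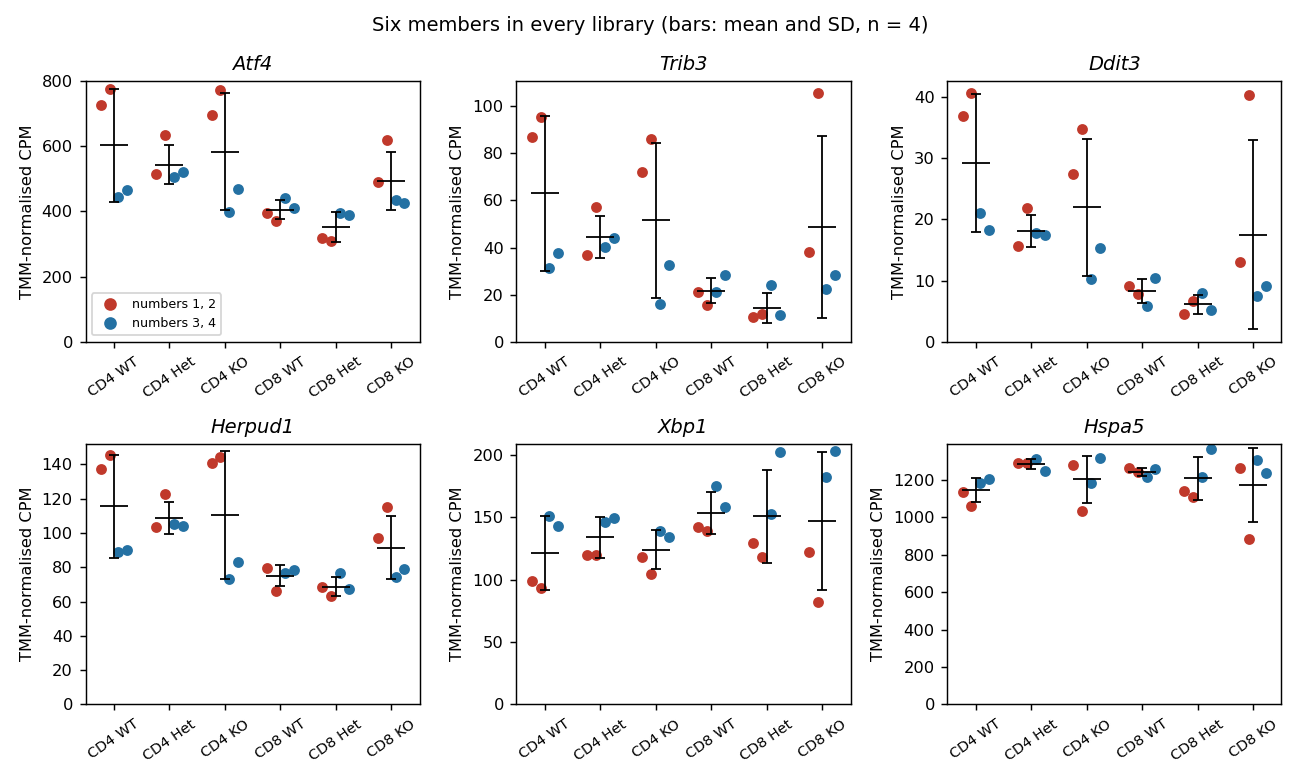
TMM-normalised CPM (y axis, from 0) of Atf4, Trib3, Ddit3, Herpud1, Xbp1 and Hspa5 in every library by group (red for library numbers 1 and 2, blue for 3 and 4; bars are mean and SD, n = 4). CD8 knockout 2 is the high point of Trib3 (106 CPM) and Ddit3 (40.3 CPM) among CD8 libraries and the low point of Hspa5 (882 CPM), and CD4 control and knockout libraries 1 and 2 lie above libraries 3 and 4 for Trib3 and Herpud1.

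In CD4 cells the library number gave calls where genotype gave none. No label calls the numbers a batch, and the split into 1 and 2 against 3 and 4 was known from earlier results of these data, so it is a description. With genotype in the fit, 25 of 40 genes differed between CD4 libraries 3 and 4 and libraries 1 and 2, against 34.8% of all genes (17.9% higher and 16.9% lower). In the ATF4 arm 19 of 22 were lower in libraries 3 and 4 and 0 higher, with a median of -0.56, and Asns, Mthfd1l and Aldh1l2 did not pass. Trib3 stood at 72.0, 86.2, 15.95 and 32.4 CPM in CD4 knockouts and 36.9, 57.2, 40.2 and 44.3 CPM in CD4 heterozygotes. The pairs were apart in knockouts, as in the controls given above, and overlapped in heterozygotes. The largest decreases were those of Nupr1 (-1.34, SE 0.35), Atf5 (-1.24, SE 0.21), Sesn2 (-1.1, SE 0.16) and Trib3 (-1.1, SE 0.24). By genotype the arm's median was -0.67 in controls and -0.96 in knockouts, where 22 of 22 genes were lower in libraries 3 and 4. In heterozygotes it was -0.07, with 15 of 22 lower. The difference of this change between genotypes was not tested. By Xist, heterozygote libraries 1 and 2 were female and libraries 3 and 4 male, in both cell types. Library number and sex therefore cannot be told apart within heterozygotes.

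The other arm did not move as a block with the library number. Xbp1 rose from libraries 1 and 2 to libraries 3 and 4 of CD4 cells. It stood at 98.7, 93.7, 151.5 and 143 CPM in controls 1 to 4, 120.1, 119.8, 146.5 and 149.5 CPM in heterozygotes and 118, 105, 139 and 134 CPM in knockouts. In each genotype both later-numbered libraries lay above both others (0.40, SE 0.06, edgeR quasi-likelihood adjusted p = 0.00029). Pdia4 was higher as well (0.17, SE 0.06). Herpud1 (-0.55, SE 0.10), Dnajb9 (-0.31, SE 0.09), an ER cochaperone, and Creld2 (-0.24, SE 0.06) were lower, and of the sensors Ern1 was lower (-0.42, SE 0.08). In the wider lists, 24 of 40 genes of the ATF4 programme were lower and 6 higher, led by the amino acid transporter genes Slc7a3 (-0.76) and Slc7a11 (-0.75) and by Vldlr (3.15) and the secreted glycoprotein gene Stc2 (1.64). In the wider unfolded protein response list 11 of 42 were lower and 6 higher, led by the ATF6 protease gene Mbtps2 (-0.41) and the oxidoreductase gene Ero1l (0.55).

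In CD8 cells 3 of 40 genes differed by library number, against 17.8% of all genes (8.98% higher and 8.86% lower): Xbp1 (0.55, SE 0.12) and Mthfd1l (0.21, SE 0.05) were higher and Eif2ak3 (-0.18, SE 0.06) lower in libraries 3 and 4. Without CD8 knockout 2 the Eif2ak3 change was -0.17, with an edgeR quasi-likelihood adjusted p = 0.0705, and its call was lost. By genotype the ATF4 arm median went opposite ways: it was 0.17 in controls (18 of 22 genes higher in libraries 3 and 4), 0.33 in heterozygotes (21 of 22 higher) and -0.45 in knockouts (21 of 22 lower). As in CD4 cells, number and sex cannot be told apart within the heterozygotes. The fitted median over genotypes was -0.04 with CD8 knockout 2 and 0.14 without it. A test of the difference between the cell types, added after these values were seen, called 8 of 40 genes, against 5.86% of all genes, and all 8 were of the ATF4 arm. They were Atf3 (0.79), Eif4ebp1 (0.74), Atf4 (0.59), Mthfd2 (0.56), Psph (0.56), Psat1 (0.50), Shmt2 (0.42) and Mthfd1l (0.24), as the log2 change by number in CD8 minus that in CD4 cells. The count depended on single libraries. Without CD8 knockout 2 it was 15 of 40, against 6.4% of all genes, the 8 included, with Herpud1, Atf6 and Ern1 beside 12 ATF4 arm genes. It was 2 to 5 without any 1 of the CD4 controls, the CD4 knockouts, CD4 heterozygote 2, CD8 controls 1 to 3, the CD8 heterozygotes and CD8 knockout 1.

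**Figure D5:**
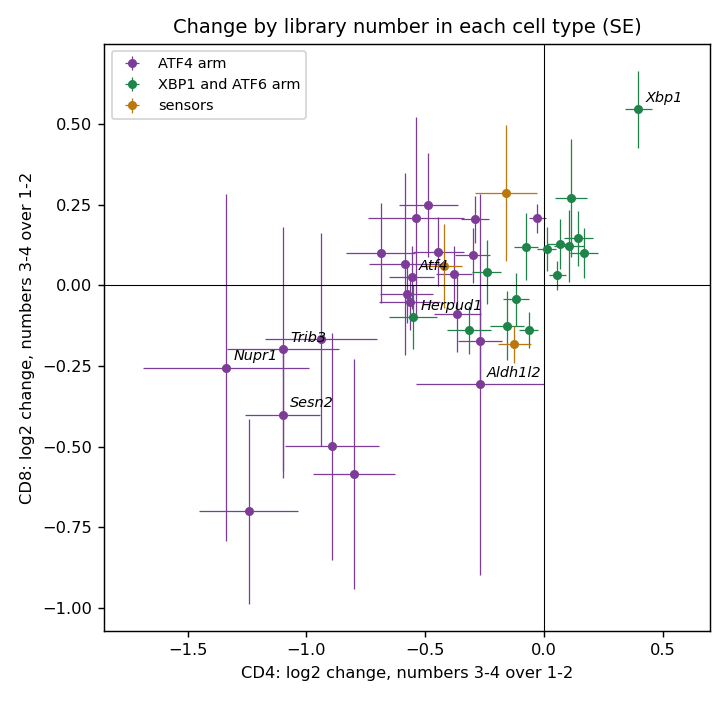
Log2 change from libraries 1 and 2 to libraries 3 and 4 in CD4 cells (x axis) and in CD8 cells (y axis) for the 40 genes, with SE as bars and the arms in colour. The ATF4 arm lies left of 0 on the CD4 axis and on both sides of 0 on the CD8 axis, and Xbp1 is at the upper right (0.40 and 0.55).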

How the data were processed

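Groups and numbers of the 24 libraries came from the labels. The values are whole-number counts of reads per gene deposited by the authors. The submitters' processing notes name Trimmomatic 0.35, STAR 2.7.1a and DESeq2 1.26.0 and the build GRCm38. For counting, annotation release and strandedness were not given in the sources used here. Reads of overlapping genes cannot be told apart. Summary lines (31.6% to 35.0% of a library's entries) were left out of library sizes and tests. The deposited normalized table was not used, and 0 columns of samples were left aside. A floor of 3 counts was 0.138 to 0.251 CPM. Such floors cover counting error only.

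Counts were fitted in R 4.3.3 with edgeR 4.0.16 (filterByExpr, TMM, quasi-likelihood F test, 2-sided, Benjamini-Hochberg over all genes tested). The CD4 fit tested 12719 genes, the CD8 fit 12612 and the joint fit 13288. Genotypes were compared within a cell type, and cell types in a fit of all libraries. DESeq2 1.42.0, other scaling, no filter, blocks, covariates, subsets and left-out libraries were alternatives. The fit was tested on simulated data. An SE was taken as the log2 change divided by the root of its F statistic. Levels are TMM-normalised CPM, except Pou2af1, scaled by library total.

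The genes, lists and splits were chosen with earlier results of these data known. All 40 genes are described by role. A comparison names each gene called (the 4 of largest change each way if over 8), or else the 2 of lowest p per arm, and up to 4 called genes of each wider list. Genes named beyond this were chosen after their values were seen, to describe roles.

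Same-numbered libraries were checked for pairing by correlating, over genes, how far each lay from its group mean. All pairs passed 0.1 among CD4 genotypes (0.132 to 0.580) and between the cell types of a genotype (0.147 to 0.451). Some sets differing in both genotype and cell type passed it too, such as CD4 controls with CD8 knockouts (0.231 to 0.460). Others did not, such as CD4 heterozygotes with CD8 controls (-0.183 to 0.281). Libraries of unlike number were not compared, so the check cannot tell pairing from a shift shared by several libraries. The labels do not settle it. Among CD8 genotypes correlations ran from -0.226 to 0.403, which leaves pairing there undecided as well.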

Additional observations from a re-analysis of the deposited data

Results flagged for a closer look

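Of 240 gene and group sets of 4 libraries, 22 (9.167%) held a library whose gap to the next, over the whole range, was above Dixon's 95% critical value, where chance gives about 1 in 20 sets. CD8 knockout 2 accounted for 12 of the 22. It was the highest of its group for Ddit3 (40.3 CPM), Psat1 (622 CPM), Phgdh (221 CPM), Aldh1l2 (13.2 CPM), Ppp1r15a (65.6 CPM), Sel1l (185 CPM), Atf6 (53.7 CPM) and Ern1 (10.9 CPM). It was the lowest for Hspa5 (882 CPM), Pdia4 (145 CPM), Creld2 (31.5 CPM) and Manf (119.9 CPM).

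CD8 heterozygote 3 was the highest of its group for Trib3 (24.04 CPM), Chac1 (5.86 CPM) and Aldh1l2 (2.85 CPM), and CD8 heterozygote 4 for Pdia4 (229 CPM). CD4 heterozygote 2 was the highest for Atf4 (634 CPM), Psat1 (711 CPM) and Herpud1 (123 CPM), and CD4 knockout 1 for Creld2 (37.4 CPM). CD4 control 4 was the lowest for Calr (501 CPM) and CD4 control 2 for Canx (891 CPM).

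The change from libraries 1 and 2 to libraries 3 and 4 differed between CD8 and CD4 cells, by edgeR's quasi-likelihood test of the difference, for Atf3 (0.79), Atf4 (0.59), Psat1 (0.50), Psph (0.56), Shmt2 (0.42), Mthfd2 (0.56), Mthfd1l (0.24) and Eif4ebp1 (0.74), on the log2 scale. The number of such genes went from 2 to 15 as single libraries were left out.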

How the results depend on the processing

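With 4 libraries a group, changes that were small beside their SE could go undetected. After adjustment over all genes, a larger change could also fail to pass in edgeR. Atf3 in CD8 knockouts against heterozygotes was such a case (1.06, SE 0.19). For the 0 of 40 genes in the genotype comparisons and in the differences between cell types, each left-out library gave 0. Libraries 1 and 2 alone gave 7 calls in CD4 heterozygotes against controls (1.98% of all genes). They gave 16 in CD8 knockouts against heterozygotes, a subset that includes CD8 knockout 2. In that last comparison DESeq2 gave 4 (0.174% of all genes) and no filter gave 1. Counts given here without a share of all genes show only how far the calls moved. For CD8 against CD4, left-out libraries gave 17 to 28 calls in controls, 20 to 24 in heterozygotes and 4 to 16 in knockouts. Libraries 3 and 4 alone gave 11 in controls. In knockouts libraries 1 and 2 alone gave 11, libraries 3 and 4 alone 10, and the replicate block 10. The block changed no other call by over 1.5 times: it gave 33 in controls, 29 in heterozygotes and 0 for each genotype comparison. That includes the CD8 genotypes, whose same-numbered libraries did not all correlate. The number split gave 22 to 28 in CD4 and 2 to 4 in CD8 with a library left out, and 12 in CD8 with no filter. The difference of that split between the cell types gave 2 to 15. With sex as a covariate the split gave 26 and 2. For Herpud1 in CD8 knockouts against controls the change was -0.010 in libraries 3 and 4 alone. Over 1059 recomputed changes of named genes, 1005 kept direction and call, 46 lost the call, 7 gained it and 1 turned. The causes were not tested.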
